A study of Mus musculus with 8 samples.

Results

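The actin and dendrite-forming migration genes are 10 genes of the actin cytoskeleton and of dendritic cell shape and movement, measured in dendritic cells of the mouse thymus at both ends of maturation. They were Fscn1, Marcks, Marcksl1, Actb, Actg1, Cacnb3, Anxa3, Src, Cttn and Myo1g. They were chosen by name, and the probes were found by matching the array's transcript accessions to RefSeq symbols. All 10 genes were on the array, with 15 of its 55681 probes, and all 15 probes passed the filter on dim signals that left 33689 probes and 24148 genes or accessions for testing. Actg1 had 5 probes, Cttn had 2 and each of the other genes had 1.

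The study, on CD40 and the maturation of thymic dendritic cells, sorted 4 populations and hybridised total RNA from each to 1-colour (Cy3) Agilent arrays, with 2 arrays a group. The groups were Sirpa-positive mature cells (replicates 1 and 6, by the numbers in the titles), Sirpa-positive immature cells (replicates 3 and 5), Sirpa-negative mature cells (replicates 2 and 8) and Sirpa-negative immature cells (replicates 4 and 7). Sirpa is an inhibitory surface receptor that separates the main dendritic cell subsets of the thymus. Mouse strain, age and number, the markers that set maturity and any pooling are not stated in these labels. Neither is whether arrays of a group came from separate sorts, so the p-values reflect spread between samples that may be technical.

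A maturing dendritic cell rebuilds its cortex, extends long motile dendrites and becomes able to migrate. Actin filaments carry this change: fascin (Fscn1) packs them into tight bundles, MARCKS proteins tie them to the plasma membrane, cortactin (Cttn) stabilises branch points made by the Arp2/3 complex, and short-tailed myosins such as Myo1g pull between filament and membrane. Src is a tyrosine kinase that phosphorylates cortactin and adhesion proteins, Anxa3 belongs to the annexins, which bind membranes when calcium rises, and Cacnb3 is an auxiliary subunit of voltage-gated calcium channels. Actb and Actg1 encode the cytoplasmic actins themselves.

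Levels are given as relative signal, the scanner software's background-subtracted spot intensity divided by that array's 75th percentile, so that 1 is a probe at the 75th percentile. They can be compared between arrays for a probe but not between probes. Differences are on the log2 scale with their standard error (SE) from a single limma model of all 8 arrays, and adjusted p is its Benjamini-Hochberg value over all genes of a comparison, with a threshold of 0.05. The 75th percentile itself lay between 147 and 313 intensity units. The share of spots well above background ran from 52.9% to 65.5%, and 0 spots were saturated. Pearson's r across genes was 0.979 to 0.987 within groups and 0.908 to 0.963 between them. The arrays lay on 1 slide in 2 rows, each with 1 array of every group. Rows were read from the position numbers in the scanner output names. The share of spots well above background was 61.9% to 65.5% in row 1 and 52.9% to 57.9% in row 2. The main model had no term for row. The sort marker followed the labels, with Sirpa signal 6.83 ± 0.224 above that of the Sirpa-negative cells in immature Sirpa-positive cells and 4.82 ± 0.224 above it in mature ones (log2, SE, n = 2 arrays per group). Within Sirpa-negative cells Sirpa was itself higher in mature than in immature cells (1.51 ± 0.224, adjusted p = 0.00555, limma). Ccr7, the chemokine receptor of mature dendritic cells, was 6.16 ± 0.597 higher in mature than in immature Sirpa-positive cells and 5.69 ± 0.597 higher in the Sirpa-negative subset. All 7 dendritic cell markers (Itgax, Flt3, Zbtb46, H2-Aa, H2-Ab1, Cd74 and Ciita) were well above background on every array. In bulk samples such as these, more RNA per cell and more cells that hold the RNA cannot be told apart.

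Sequence upstream of the start site was matched in RefSeq's GRCm38.p6 promoter table for 6 of the 10 genes: Fscn1, Marcksl1, Actg1, Cacnb3 (with 2 start sites), Src and Myo1g. The 250 bases before the start were searched on both strands for the CArG box bound by SRF, which binds at many actin genes, and for the kappaB site bound by NF-kB, a factor of dendritic cell maturation. After the sequences had been read, the cAMP response element TGACGTCA and the TATA box core TATAAA were added. The promoters of 3 genes are shown because they carry the only matches, those of Fscn1 being to the 2 motifs added later. These genes also stand for 3 patterns described below. Fscn1 had a large rise in both subsets (chr5:142960105-142960354, plus strand). Src had a rise that passed in Sirpa-negative cells only (chr2:157424043-157424292, plus strand). Actg1 had no maturation change that passed (chr11:120348496-120348745, minus strand). Each promoter reads 5′ to 3′ along the gene and ends at the base before the start, with matches in capitals.
Fscn1: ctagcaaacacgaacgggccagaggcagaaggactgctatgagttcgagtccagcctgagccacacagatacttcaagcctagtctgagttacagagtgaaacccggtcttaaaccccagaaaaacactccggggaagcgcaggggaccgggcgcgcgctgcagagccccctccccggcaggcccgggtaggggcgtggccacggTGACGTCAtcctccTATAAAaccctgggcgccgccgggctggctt
Src: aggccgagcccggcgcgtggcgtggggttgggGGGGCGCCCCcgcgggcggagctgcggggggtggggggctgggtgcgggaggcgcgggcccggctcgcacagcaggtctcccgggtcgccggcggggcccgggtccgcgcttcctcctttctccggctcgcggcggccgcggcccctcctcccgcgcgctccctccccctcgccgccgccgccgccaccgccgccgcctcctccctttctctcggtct
Actg1: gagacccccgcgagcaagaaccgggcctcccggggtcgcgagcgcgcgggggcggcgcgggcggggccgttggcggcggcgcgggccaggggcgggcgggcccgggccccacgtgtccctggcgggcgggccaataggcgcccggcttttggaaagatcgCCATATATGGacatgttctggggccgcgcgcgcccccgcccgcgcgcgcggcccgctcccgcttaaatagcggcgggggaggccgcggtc

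Fscn1 held the cAMP response element 45 to 38 bases before its start and the TATA box core 31 to 26 bases before it, Actg1 a CArG box (CCATATATGG, 90 to 81 bases before) and Src a match to the kappaB site (GGGGCGCCCC, 218 to 209 bases before). No matches overlapped. Of the 32851 promoter windows in the table, 1.47% held a CArG box, 7.25% a kappaB site, 1.55% the cAMP response element and 12.4% the TATA box core. Marcksl1, Myo1g and both start sites of Cacnb3 held none of the 4 motifs in these windows. A match is a description of the letters and not a sign of use.

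Maturation was the first question. In all, 6 genes rose in Sirpa-positive cells and 7 in Sirpa-negative cells, and none (0 of 10) fell in either subset. Fscn1, Marcks, Marcksl1, Cacnb3, Anxa3 and Myo1g rose in both, Src rose in Sirpa-negative cells, and Actb, Actg1 and Cttn passed in neither. Over all 24148 genes, 4.35% rose and 2.54% fell in Sirpa-positive cells (6.89% in all), and 9.23% rose and 7.24% fell in Sirpa-negative cells (16.5% in all). The median difference of the 10 genes was 1.39 in Sirpa-positive and 2.32 in Sirpa-negative cells, against medians of 0.03 and -0.01 over all genes. The 2 groups of arrays did not overlap for 9 of the 10 genes in Sirpa-positive cells and for 7 in Sirpa-negative cells, as for 51.1% and 57% of all genes. The genes were chosen with earlier results of these arrays known, so the counts describe them and are not independent support. The Sirpa-positive count fell to 3 when mature replicate 6, immature replicate 3 or immature replicate 5 was left out, and to 3 when dim probes were kept. Among all genes that passed in Sirpa-positive cells 63.2% were rises, and 51.0% were with normexp and quantile normalization.

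**Figure D1:**
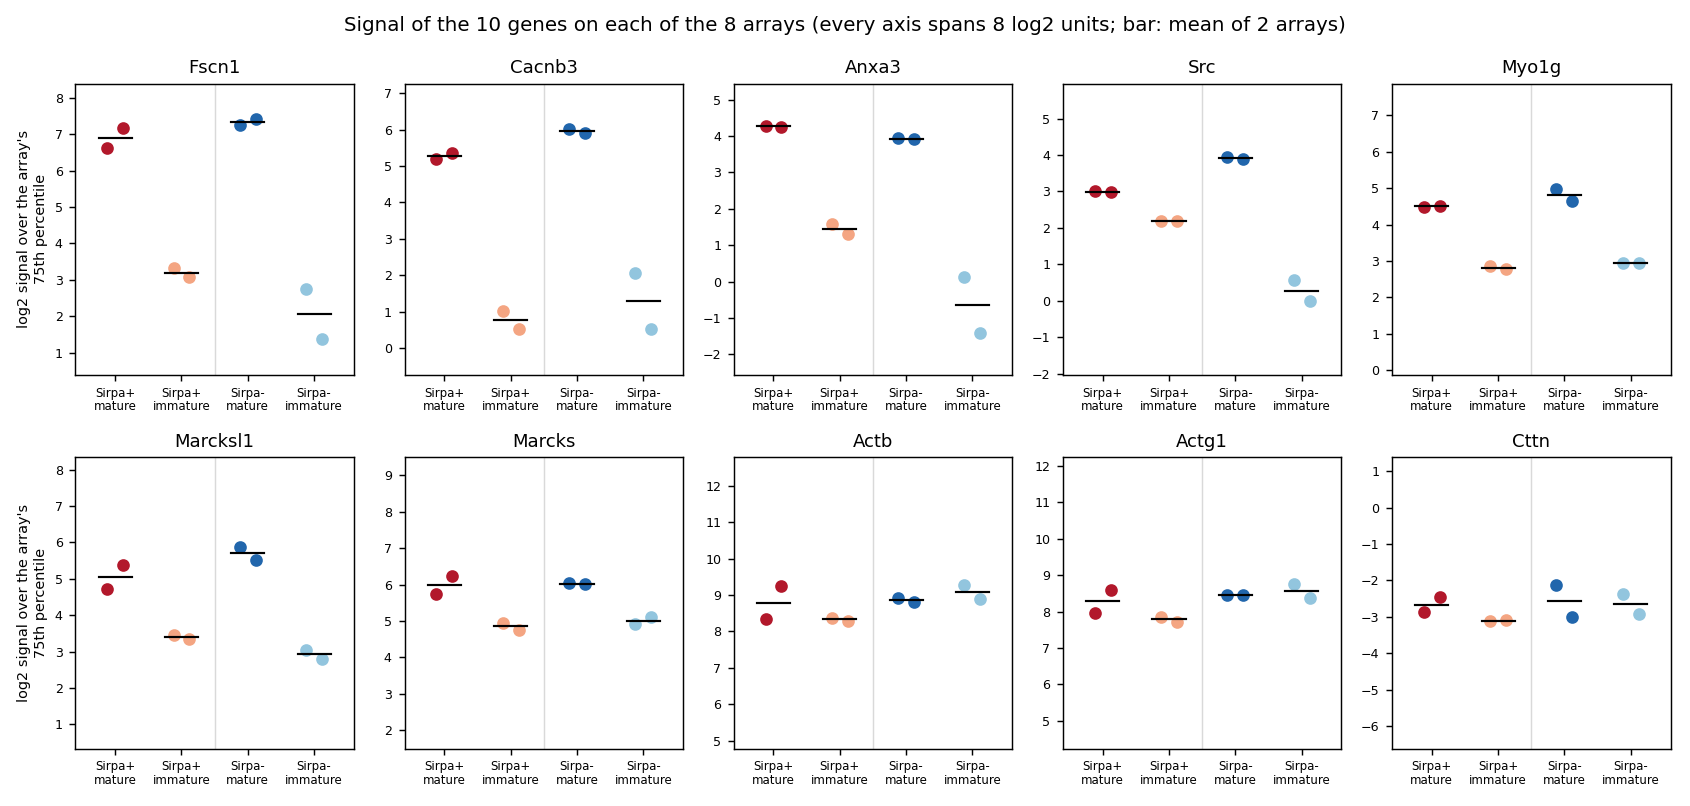
Log2 relative signal of the 10 genes (the brightest probe of each) on every array, by group, with each panel spanning 8 log2 units; points are arrays and bars the means of 2 arrays. Fscn1, Cacnb3, Anxa3, Myo1g, Marcksl1 and Marcks stand higher in mature cells of both subsets, Src has its lowest arrays in Sirpa-negative immature cells, and the mature and immature arrays of Actb, Actg1 and Cttn lie close together or overlap.

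Fscn1, whose product bundles the filaments of dendrites and is a marker of mature dendritic cells, had a relative signal of 99.3 and 143 in Sirpa-positive mature cells, against 10.1 and 8.42 in Sirpa-positive immature cells. In the Sirpa-negative subset it stood at 154 and 170 in mature cells, against 6.72 and 2.58 in immature cells. Every mature array was far above every immature array. The rise was 12.9-fold in Sirpa-positive cells (3.69 ± 0.434, adjusted p = 0.00509, limma) and 38.9-fold in Sirpa-negative cells (5.28 ± 0.434, adjusted p = 0.000755). It passed in all 17 alternatives in each subset. The order of levels was Sirpa-negative mature, Sirpa-positive mature, Sirpa-positive immature and Sirpa-negative immature. The step between the mature groups (-0.44 ± 0.434, Sirpa-positive minus Sirpa-negative, adjusted p = 0.743) did not pass, and that between the immature groups (1.14 ± 0.434, adjusted p = 0.158) did not pass either. Without Sirpa-negative immature replicate 4, the higher array of its group, the immature step was 1.83 with adjusted p = 0.018.

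Cacnb3, the calcium channel beta subunit, had the largest rise of the 10 genes in Sirpa-positive cells. Its relative signal was 36.6 and 41.4 in Sirpa-positive mature cells, against 2.04 and 1.44 in Sirpa-positive immature cells. It was 64.7 and 59.9 in Sirpa-negative mature cells, against 4.16 and 1.43 in Sirpa-negative immature cells. The states were again well apart, by 22.7-fold in Sirpa-positive cells (4.51 ± 0.465, adjusted p = 0.0032, limma) and 25.6-fold in Sirpa-negative cells (4.68 ± 0.465, adjusted p = 0.00128), and both rises passed in all 17 alternatives. The subsets did not differ beyond the threshold among mature cells (-0.68 ± 0.465, adjusted p = 0.588) or among immature cells (-0.51 ± 0.465, adjusted p = 0.549), and the 2 immature groups overlapped.

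Anxa3 stood at 19.5 and 19.1 in Sirpa-positive mature cells, against 2.97 and 2.49 in Sirpa-positive immature cells. It stood at 15.5 and 14.98 in Sirpa-negative mature cells, against 1.08 and 0.377 in Sirpa-negative immature cells. The mature groups were close and the immature groups apart. The rise was 7.10-fold in Sirpa-positive cells (2.83 ± 0.443, adjusted p = 0.0132, limma) and 23.8-fold in Sirpa-negative cells (4.58 ± 0.443, adjusted p = 0.00116). The Sirpa-negative rise passed in all 17 alternatives. The Sirpa-positive rise missed the threshold when mature replicate 1 (0.0584) or 6 (0.0803) or immature replicate 3 (0.0722) or 5 (0.0918) was left out, and when dim probes were kept (0.0628), while its size stayed between 2.70 and 2.95.

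Myo1g, a myosin of blood cells that links the membrane to actin, changed by much the same amount in both subsets. Its relative signal was 22.3 and 23.0 in Sirpa-positive mature cells, against 7.22 and 6.85 in Sirpa-positive immature cells. It was 31.4 and 24.9 in Sirpa-negative mature cells, against 7.76 and 7.65 in Sirpa-negative immature cells. The rise was 3.22-fold (1.69 ± 0.2001, adjusted p = 0.00522, limma) and 3.63-fold (1.86 ± 0.2001, adjusted p = 0.00169), and each passed in all 17 alternatives.

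Marcksl1, a small relative of MARCKS, had a relative signal of 26.5 and 41.4 in Sirpa-positive mature cells, against 11.01 and 10.2 in Sirpa-positive immature cells. In Sirpa-negative cells it was 58.8 and 46.1 in mature cells, against 8.32 and 6.93 in immature cells. The immature arrays lay in a narrow band and the mature arrays spread more widely. The rise was 3.12-fold in Sirpa-positive cells (1.64 ± 0.273, adjusted p = 0.0161, limma) and 6.86-fold in Sirpa-negative cells (2.78 ± 0.273, adjusted p = 0.00125). The first missed the threshold without mature replicate 6 (0.0815), without immature replicate 3 (0.0933) or 5 (0.108), and when dim probes were kept (0.0762), and the second passed in all 17 alternatives.

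Marcks itself, the filament-to-membrane linker released by protein kinase C, rose less. Its relative signal was 53.0 and 75.7 in Sirpa-positive mature cells, against 31.1 and 26.9 in Sirpa-positive immature cells. It was 65.6 and 64.7 in Sirpa-negative mature cells, against 30.1 and 34.5 in Sirpa-negative immature cells. The states did not overlap, and the rises were 2.19-fold (1.13 ± 0.236, adjusted p = 0.0341, limma) and 2.02-fold (1.02 ± 0.236, adjusted p = 0.0276). These were the weakest calls of the set. In Sirpa-positive cells the rise passed in 7 of 17 alternatives and missed without mature replicate 6 (0.152), immature replicate 3 (0.131) or 5 (0.204) and, in the other subset, without mature replicate 2 or 8 (0.0524 each) or immature replicate 4 or 7 (0.0519 each). In Sirpa-negative cells it passed in 8 of 17 and missed without mature replicate 2 (0.109) or 8 (0.0793), immature replicate 4 (0.128) or 7 (0.0727) and, in the other subset, immature replicate 3 or 5 (0.0530 each). Both rises also missed with arrays scaled to their median (0.0671 and 0.0607), with dim probes kept (0.131 and 0.0980) and with a block for slide row (0.0669 and 0.0513).

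Src had the most unequal maturation differences of the 10 genes between the subsets, a contrast that did not pass and is given below. Its relative signal was 8.11 and 7.85 in Sirpa-positive mature cells, against 4.57 and 4.54 in Sirpa-positive immature cells. It was 15.3 and 14.9 in Sirpa-negative mature cells, against 1.48 and 0.992 in Sirpa-negative immature cells. The 4 groups did not overlap, in the order Sirpa-negative mature, Sirpa-positive mature, Sirpa-positive immature and Sirpa-negative immature. The rise of 12.5-fold in Sirpa-negative cells (3.64 ± 0.235, adjusted p = 0.000445, limma) passed in all 17 alternatives. The Sirpa-positive difference, 0.81 ± 0.235 (adjusted p = 0.0974), did not pass, and did so in 1 of 17 alternatives, with robust trended variances (0.0309).

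The actin genes did not pass. Actb had a relative signal of 321 and 607 in Sirpa-positive mature cells, against 331 and 313 in Sirpa-positive immature cells, and the groups overlapped. It had 488 and 448 in Sirpa-negative mature cells, against 618 and 475 in Sirpa-negative immature cells, again with overlap. The differences were 0.46 ± 0.318 (95% interval -0.29 to 1.203, adjusted p = 0.509, limma) and -0.21 ± 0.318 (-0.96 to 0.53, adjusted p = 0.711). Without mature replicate 6 the first was -0.0020 (adjusted p = 0.998), and without mature replicate 1 it was 0.91. The intervals leave room for sizeable changes in either gene's level, which this number of arrays could not detect.

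By its brightest probe, Actg1 had 250.02 and 389 in Sirpa-positive mature cells, against 230.2 and 212 in Sirpa-positive immature cells. It had 351 and 349.7 in Sirpa-negative mature cells, against 429 and 331 in Sirpa-negative immature cells. The differences were 0.50 ± 0.266 (95% interval -0.13 to 1.12, adjusted p = 0.362, limma) and -0.10 ± 0.266 (-0.73 to 0.52, adjusted p = 0.839). Tested singly, all 5 probes of Actg1 gave a difference between 0.50 and 0.64 in Sirpa-positive cells, with adjusted p between 0.113 and 0.364, and between -0.10 and 0.16 in Sirpa-negative cells, with adjusted p between 0.634 and 0.932. The coding sequences of the cytoplasmic actins are similar, so a probe in a shared stretch could read both genes. Whether any of these probes does was not tested. Across the 8 arrays the log2 signals of Actb and Actg1 correlated at 0.971, as a description of arrays that share their groups.

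Cttn was dim and its 2 probes disagreed. The brighter probe had a relative signal of 0.136 and 0.183 in Sirpa-positive mature cells, against 0.115 and 0.117 in Sirpa-positive immature cells. It had 0.230 and 0.125 in Sirpa-negative mature cells, against 0.193 and 0.132 in Sirpa-negative immature cells. No order of the groups stood out, and neither difference passed (0.44 ± 0.345, adjusted p = 0.562, and 0.08 ± 0.345, adjusted p = 0.905, limma). The dimmer probe had 0.103 and 0.148 in Sirpa-positive mature cells, against 0.173 and 0.178 in Sirpa-positive immature cells. It had 0.154 and 0.0854 in Sirpa-negative mature cells, against 0.0644 and 0.0550 in Sirpa-negative immature cells, where neither array was well above background. Its difference in Sirpa-positive cells (-0.51 ± 0.325, adjusted p = 0.463) did not pass. In Sirpa-negative cells 1 of 2 mature arrays and 0 of 2 immature arrays were well above background. The difference there (0.95 ± 0.325, adjusted p = 0.0971) did not pass either and rests on signals near background.

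**Figure D2:**
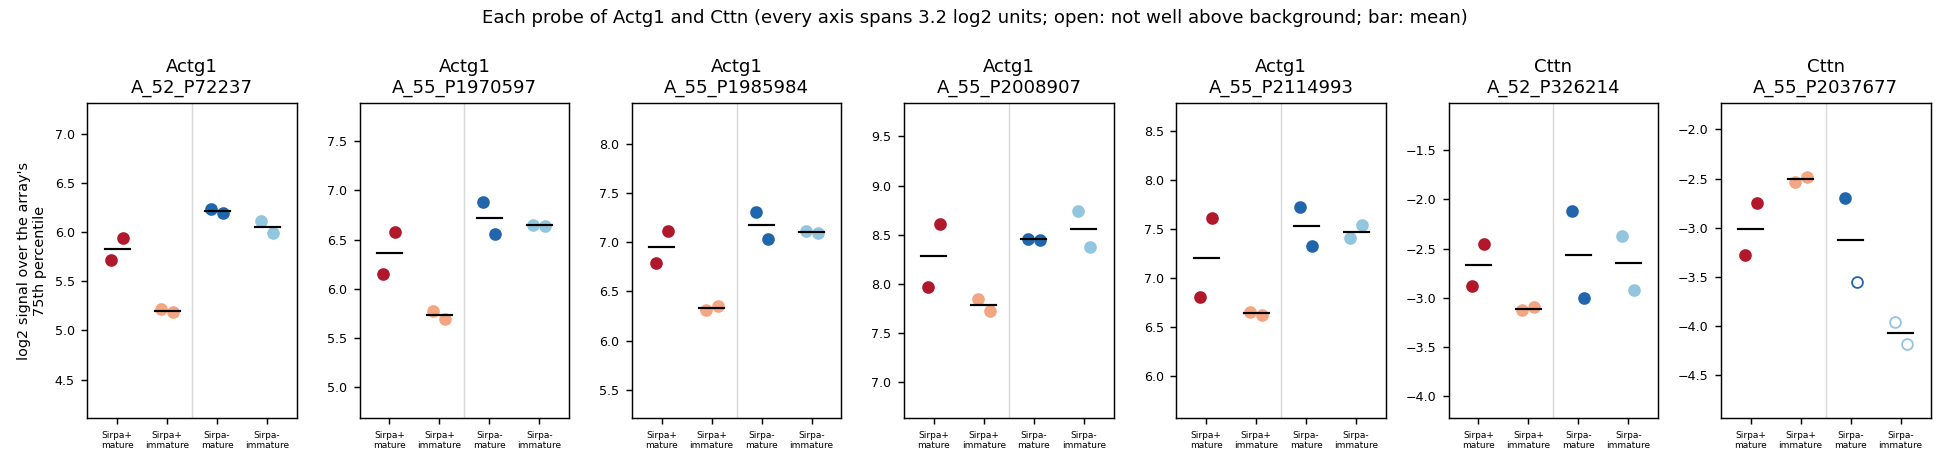
Log2 relative signal of each probe of Actg1 and Cttn on every array, by group; points are arrays (open where not well above background), bars are means of 2 arrays and every panel spans 3.2 log2 units. The 5 Actg1 probes have their lowest arrays in Sirpa-positive immature cells, while the 2 Cttn probes order the groups differently.

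Whether maturation acted unequally on the subsets was asked with the difference between the maturation effects, Sirpa-positive minus Sirpa-negative. None (0 of 10) of the genes passed, nor did any of the 24148 genes (0%) in limma, although 4 of the 10 and 1946 of all genes had an unadjusted p under 0.05. The 4 were Src (-2.83 ± 0.332, adjusted p = 0.0688), Anxa3 (-1.75 ± 0.626, adjusted p = 0.506), Fscn1 (-1.59 ± 0.614, adjusted p = 0.544) and Marcksl1 (-1.14 ± 0.387, adjusted p = 0.474), all with the smaller rise in Sirpa-positive cells. Src ranked 13 by p among all genes, and the smallest adjusted p of any gene was 0.0688 as well. Its difference kept its direction in both rows of the slide (-3.11 and -2.55) and passed in 4 of 17 alternatives, with normexp and quantile normalization (0.0061), the authors' deposited log2 values (0.0116), a filter that asked for signal over background on all 8 arrays (0.0138) and robust trended variances (0.00233). Over all 17 it lay between -3.12 and -2.54, with adjusted p from 0.00233 to 0.426. For Marcks (0.12 ± 0.334), Myo1g (-0.17 ± 0.283) and Cacnb3 (-0.17 ± 0.657) the difference was small, with 95% intervals of -0.67 to 0.90, -0.84 to 0.49 and -1.71 to 1.37.

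The subsets were then compared within each state, Sirpa-positive minus Sirpa-negative. Among immature cells 2 of the 10 genes were higher in Sirpa-positive cells and 0 lower, beside 7.23% higher and 4.39% lower of all genes, 11.6% in all. Src was 3.76-fold higher (1.91 ± 0.235, adjusted p = 0.00219, limma) and passed in all 17 alternatives. Anxa3 was 4.26-fold higher (2.09 ± 0.443, adjusted p = 0.0235) and missed without Sirpa-positive immature replicate 3 (0.149) or 5 (0.0858), and when dim probes were kept (0.0827). The actin genes stood lower in Sirpa-positive immature cells on every array, Actb at -0.75 ± 0.318 (adjusted p = 0.201) and Actg1 at -0.77 ± 0.266 (adjusted p = 0.124), and did not pass. Of the 5 Actg1 probes tested singly, all lay between -0.92 and -0.77 and 2 passed (adjusted p = 0.0325 and adjusted p = 0.0475). The dimmer Cttn probe was at least 2.35-fold higher in Sirpa-positive immature cells (adjusted p = 0.0236 over all probes), while the brighter one stood at -0.46 ± 0.345 (adjusted p = 0.459). That fold is a bound because the Sirpa-negative arrays were not well above background there. It sets the Sirpa-positive mean against, on each Sirpa-negative array, either the probe's own signal or the dimmest signal still well above background, whichever was higher. The median of the 10 genes was -0.14, against -0.11 over all genes, and 8 of the 10 did not overlap between the subsets, as 59.3% of all genes.

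Among mature cells no gene of the 10 passed (0 of 10), beside 5.47% of all genes (3.38% higher and 2.1% lower). In limma 4033 of the 24148 genes had an unadjusted p under 0.05, and so did 2 of the 10. These were Src, which stood 1.89-fold lower in Sirpa-positive mature cells (-0.92 ± 0.235, adjusted p = 0.0766), and Marcksl1 (-0.65 ± 0.273, adjusted p = 0.289). On every array Src was thus above the Sirpa-negative level in immature Sirpa-positive cells and below it in mature ones. Its mature difference passed in 4 of 17 alternatives, with normexp and quantile normalization (0.0202), the authors' deposited log2 values (0.0398), the filter over all 8 arrays (0.0491) and robust trended variances (0.0193), over a range of adjusted p from 0.0193 to 0.246. The median of the 10 genes was -0.24, against -0.07 over all genes, and 6 of the 10 did not overlap, as 40.8% of all genes.

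**Figure D3:**
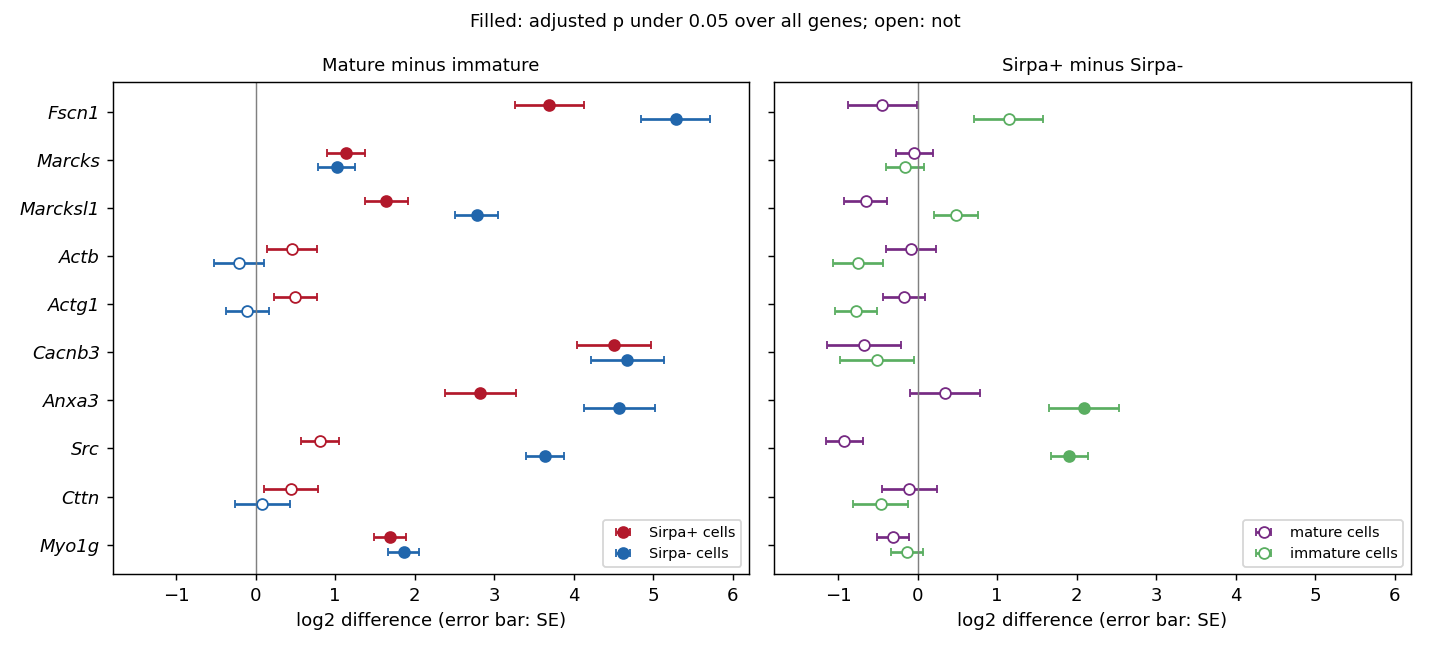
Log2 differences of the 10 genes, mature minus immature in each subset (left) and Sirpa-positive minus Sirpa-negative in each state (right); points are estimates from the limma model of all 8 arrays, error bars their SE, and filled points passed at an adjusted p under 0.05. Fscn1, Cacnb3, Anxa3 and, in Sirpa-negative cells, Src have the largest maturation differences, and Src and Anxa3 are the filled points on the right.

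Genes listed as markers of other cells moved along these axes. Whether the dendritic cells themselves held this RNA was not tested. The sums below can be compared between arrays for a list but not between lists. The list of thymocyte and T cell genes had 18 members, of which 6 were higher and 0 lower in Sirpa-positive mature cells, and 12 were higher and 0 lower in Sirpa-negative mature cells. Their summed relative signal was 66.6 and 68.9 on the Sirpa-positive mature arrays, against 46.3 and 53.1 on the Sirpa-positive immature arrays. It was 81.1 and 103 on the Sirpa-negative mature arrays, against 36.7 and 47.9 on the Sirpa-negative immature arrays. All 18 were well above background on some array. Of 11 macrophage and monocyte markers, 11 were higher in immature Sirpa-positive cells and 9 in mature Sirpa-positive cells, each against the Sirpa-negative cells of that state. Their sums were 475 and 617 in Sirpa-positive immature cells, against 14.6 and 15.6 in Sirpa-negative immature cells, and 380 and 396 in Sirpa-positive mature cells, against 16.2 and 18.6 in Sirpa-negative mature cells. Their part in the differences of Src and Anxa3 between the subsets was not tested, nor was that of the T cell markers in the maturation rises. The fibroblast, smooth muscle and endothelial list summed to 17.4 and 15.8 on the Sirpa-positive mature arrays, against 12.03 and 10.8 on the Sirpa-positive immature arrays. It summed to 13.7 and 9.90 on the Sirpa-negative mature arrays, against 4.47 and 3.92 on the Sirpa-negative immature arrays. Of its 7 tested members, Kdr, an endothelial receptor gene, rose in Sirpa-negative cells (2.94 ± 0.246, adjusted p = 0.000798, limma), Myh11 fell there, and Pecam1 fell in Sirpa-positive cells. The B cell list summed to 8.10 and 8.54 in Sirpa-positive mature cells, against 5.34 and 5.40 in Sirpa-positive immature cells, and to 2.89 and 3.09 in Sirpa-negative mature cells, against 1.63 and 2.26 in Sirpa-negative immature cells. The part of these lists in the maturation rises was not tested. The epithelial list summed to between 224 and 304 on the arrays, with both ends on Sirpa-positive mature arrays. B cell, granulocyte, epithelial and stromal markers each had at most 3 members that passed in a comparison, but few were tested. Among immature cells 2 of 7 stromal markers were higher and 1 lower in Sirpa-positive cells. For B cell markers these were 1 higher and 1 lower of 5, and for epithelial markers 2 higher and 0 lower of 7. Of all genes 11.6% passed in that comparison. The part of these lists in the subset differences was not tested. Of all genes, 5.47% to 16.5% passed in the maturation and subset comparisons. Mpo, Cldn3, Cdh5 and Pdgfra were among the markers not well above background on any array.

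The genes whose pattern over the 8 arrays was most like each member were found by Pearson's r over 13846 other genes with a symbol, as a description of arrays that fall into 4 groups. Fscn1 was followed most closely by Rcsd1 (0.997), Ksr1 (0.997) and Vsig10 (0.995). Cacnb3 was followed by Arc (0.997), Ccr7 (0.997), the chemokine receptor of migrating dendritic cells, and the integrin gene Itgb8 (0.997). Anxa3 went with Il4i1 (0.996), Cyria (0.996) and Pla2g4f (0.995), and Myo1g with Cd70 (0.996), the ligand of CD27, Spata31d1b (0.995) and Gypc (0.995). Src went with Akap13 (0.984), Scpep1 (0.981) and Rragd (0.980), and Marcks with Sbf2 (0.989), Gtf2a1 (0.986) and Stard7 (0.984). Among the members, Fscn1 and Marcksl1 correlated at 0.979 and Cacnb3 and Myo1g at 0.983, while Actb correlated at 0.113 with Fscn1.

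Other cytoskeletal genes were taken from 11 lists with 224 genes, of which 205 were tested, and 10 of the lists are described singly. With maturation, 20 rose and 8 fell in Sirpa-positive cells and 39 rose and 24 fell in Sirpa-negative cells, with medians of 0.08 in each subset, against 0.03 and -0.01 over all genes. Over all genes 4.35% rose and 2.54% fell in Sirpa-positive cells and 9.23% rose and 7.24% fell in Sirpa-negative cells, which are the shares to set beside the counts of each list below. Over the alternatives the number that passed lay between 7 and 51 in Sirpa-positive cells and between 33 and 81 in Sirpa-negative cells. Filament bundling and crosslinking proteins, the group of Fscn1, had 4 risen and 1 fallen of 14 in Sirpa-positive cells and 5 risen and 2 fallen in Sirpa-negative cells. Swap70, which binds filaments and Rac, rose in both (2.75-fold and 3.16-fold), Eps8 fell in Sirpa-positive cells (2.40-fold) and the spectrin gene Sptbn1 in Sirpa-negative cells (2.42-fold). Filament turnover, capping and monomer-binding genes had 3 risen and 1 fallen, then 4 risen and 3 fallen, of 30. Scin, a filament-severing relative of gelsolin that was not well above background in immature cells, rose at least 12.3-fold in Sirpa-positive cells (adjusted p = 0.00236, limma) and at least 24.4-fold in Sirpa-negative cells (adjusted p = 0.000388). The slingshot phosphatase gene Ssh2 fell 2.84-fold in the first subset and the twinfilin gene Twf2 2.24-fold in the second.

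The branching machinery that cortactin stabilises had 0 of 22 Arp2/3 complex and activator genes passing in Sirpa-positive cells and 3 risen and 1 fallen in Sirpa-negative cells. There Wasl rose 2.08-fold and Was, the activator of blood cells, fell 2.45-fold. Formins, which build unbranched filaments, had 1 risen and then 3 risen of 10 and 0 fallen, led by Inf2 (3.30-fold and 5.36-fold). Myosins had 0 of 21 passing in Sirpa-positive cells, and 2 risen and 3 fallen in Sirpa-negative cells. Myo1e rose 3.41-fold, and Myo19 fell 3.25-fold to a signal not well above background on either mature array. Linkers between membrane and filaments had 0 of 17 passing in Sirpa-positive cells. In Sirpa-negative cells 2 rose and 4 fell, with Trip10 up 5.99-fold (1 of 2 immature arrays above background) and the integrin activator gene Fermt3 down 2.56-fold.

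Src's relatives and partners had 0 risen and 1 fallen of 15 in Sirpa-positive cells, Fgr (1.79-fold), and in Sirpa-negative cells 2 risen and 2 fallen, with Lck (2.24-fold), a kinase gene that also stands among the T cell markers, and Abl1 (2.06-fold lower). Annexins and S100 partners had 0 risen and 2 fallen of 13, S100a10 falling 2.89-fold, and then 4 risen and 3 fallen, with S100a4 up 11.9-fold and Anxa1 down 3.27-fold. Calcium channel subunits had 4 risen and 1 fallen of 11 in Sirpa-positive cells and 2 risen and 2 fallen in Sirpa-negative cells. The pore gene Cacna1s rose 4.81-fold in Sirpa-positive cells, the beta subunit gene Cacnb1 14.9-fold in Sirpa-negative cells, and the beta subunit gene Cacnb2 fell in both (2.79-fold and 2.29-fold). Tubulins and microtubule proteins had 3 risen and 0 fallen, then 4 risen and 1 fallen, of 18, led by Tubb2b (6.07-fold and 10.2-fold), and Stmn1 fell 1.95-fold in Sirpa-negative cells.

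**Figure D4:**
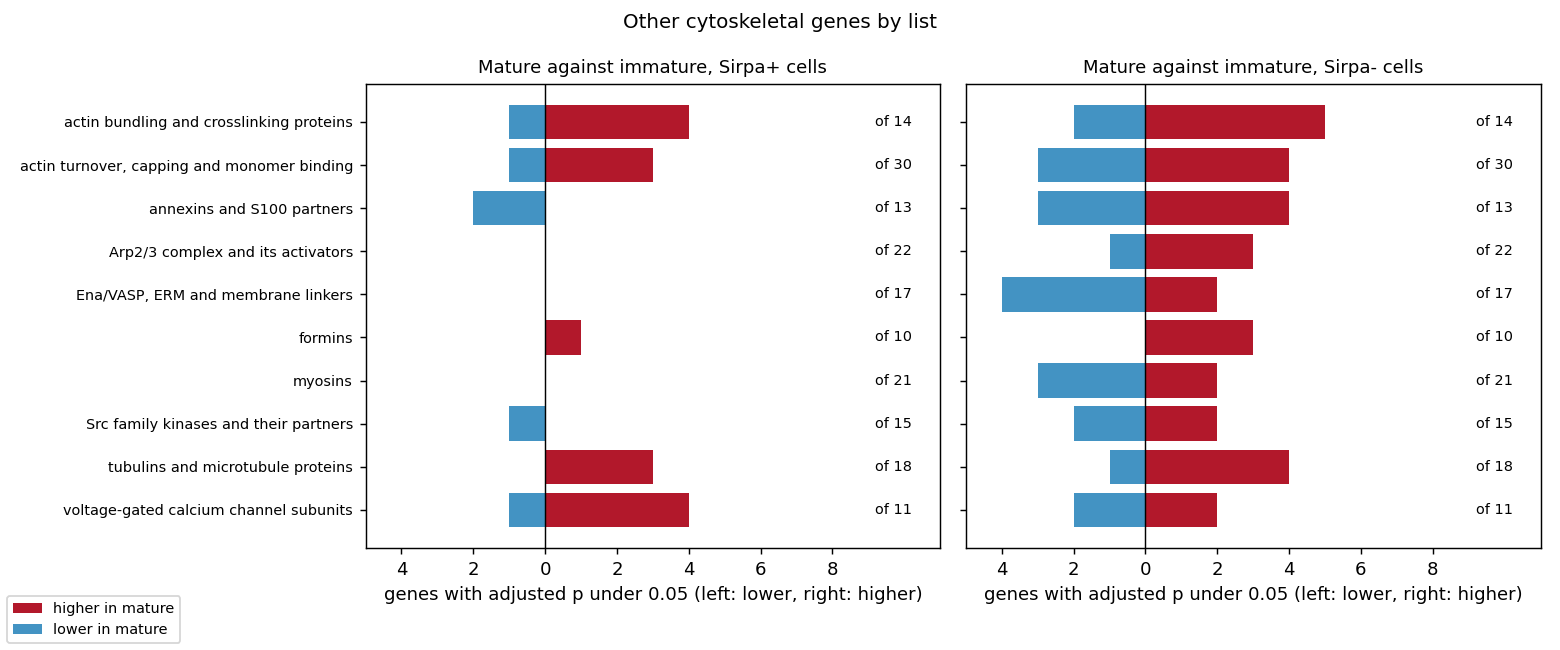
Number of genes of each of 10 cytoskeletal lists that were higher (right of 0) or lower (left of 0) in mature cells at an adjusted p under 0.05, in Sirpa-positive cells (left panel) and Sirpa-negative cells (right panel), with the number tested beside each bar. Arp2/3, linker and myosin genes have no bar in Sirpa-positive cells, and the bundling list has 4 risen genes there and 5 in Sirpa-negative cells.

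Between the subsets, 25 of the 205 genes were higher and 17 lower in Sirpa-positive immature cells, and 11 were higher and 8 lower in Sirpa-positive mature cells, with medians of -0.11 and -0.15, against -0.11 and -0.07 over all genes. Over all genes 7.23% were higher and 4.39% lower among immature cells, and 3.38% higher and 2.1% lower among mature cells. Over the alternatives 18 to 58 passed among immature cells and 7 to 34 among mature cells. Among the genes named below, the largest differences were those of Myo1e, S100a4, Capg and Myo6. Myo1e was 40.3-fold higher in Sirpa-positive immature cells and 10.04-fold higher in Sirpa-positive mature cells, and Myo6 was 14.8-fold and 10.95-fold lower. The capping protein gene Capg was 24.3-fold and 9.84-fold higher. S100a4 was 32.4-fold higher in Sirpa-positive immature cells, and S100a10 2.26-fold higher in Sirpa-positive mature cells. Abi3 (5.92-fold and 2.85-fold) and Mtss1 (4.49-fold and 3.13-fold) were higher in both states, and Tubb2b (2.44-fold and 4.10-fold), Add3 (2.21-fold and 2.02-fold) and Cacna1s (8.75-fold and 2.30-fold) lower in both. Among immature cells Fyb (2.39-fold) and Fmn1 (3.24-fold, 1 of 2 Sirpa-negative arrays above background) were higher, and Evl (2.18-fold), Anxa1 (2.97-fold), Fmnl2 (1.88-fold) and Tmsb10 (2.16-fold) lower. Among mature cells Cacna1f was at least 3.04-fold higher and Inf2 2.09-fold lower. The macrophage markers moved along the same axis, with the sums given above.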

How the data were processed

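Dendritic cells sorted from mouse thymus were measured on 8 arrays in 4 groups of 2. The scanner files hold spot intensity, made with Feature Extraction 10.7.3.1 per the file headers, and the background-subtracted processed signal was used. The submitters' processing notes name Agilent Feature Extraction 10.5 and limma instead, with no settings; which version applied is unclear. Judged by its range, the table of values deposited by the authors is on a log2 scale, with array medians of 5.99 to 6.01 and unstated centring.

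Among 59305 spots other than controls, outlier-marked ones (110 to 270 an array) became missing, and repeated spots were averaged. Each array's log2 signals had its log2 75th percentile subtracted. Probes stayed if both arrays of any group lay well above background, and the brightest probe represented a gene. RefSeq (GRCm38.p6) accessions named 26582 probes and left 29099 unnamed. All 8 arrays entered a limma 3.58.1 model in R 4.3.3 with 4 group means and 4 residual and 3.26 prior degrees of freedom; tests were two-sided. The procedure was tested on simulated data with independent noise and no slide row effect, so that test says nothing of such an effect. Precision is limited by the number of arrays.

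The members, gene lists and comparisons were chosen with earlier results of these data known. Named genes are the 10 members, the gene with the smallest p in each direction of each list and comparison, and the 3 genes most like each of 6 members; 1 of the 11 lists and 1 marker are not reported here. The normexp alternative took the median signal, the column at hand. The other alternatives were quantile scaling, scaling to the median, the deposited values, a stricter filter and none, the mean of a gene's probes, the slide row as a block, robust trended variances and each array left out.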

Additional observations from a re-analysis of the deposited data

How the results depend on the processing

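The 15 member results that passed kept their direction in all 255 refits (17 alternatives each) and passed in 224. The refits that missed concerned Marcks, Marcksl1 and Anxa3. With dim probes kept, 3 members passed for maturation in Sirpa-positive cells and 1 for the immature subset difference, and the genes called fell to 430 and 1615 for maturation in Sirpa-positive and Sirpa-negative cells and to 1557 and 579 for the immature and mature subset differences. With the slide row as a block, 1062 genes passed for Sirpa-positive maturation. In both the mature subset difference and the difference between maturation effects 1 member, Src, passed with normexp plus quantile normalization, with the authors' values, the filter on all 8 arrays and robust trended variances. The genes passing for the difference between effects were 178, 148, 101 and 186 under those settings, 1 with median scaling and 4 with the mean of a gene's probes.

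Some results that had not passed changed sign. Actg1 in Sirpa-negative maturation was 0.099 with normexp, 0.066 with quantile scaling, 0.099 with the authors' values and 0.050 with the mean of its probes. Cttn there was -0.011 with quantile and -0.029 with median scaling. Marcks between the subsets was 0.018 (normexp), 0.022 (quantile) and 0.019 (authors' values) among immature cells, and 0.040, 0.034, 0.039 and, with median scaling, 0.030 among mature cells. With the mean of its probes Cttn was -0.031 in Sirpa-positive maturation, 0.55 and 0.0032 between immature and mature subsets and -0.55 for the difference of effects. The cause was not tested, except that averaging joins 2 Cttn probes that disagree. Median scaling moved the median of all genes to -0.07 in Sirpa-positive and -0.12 in Sirpa-negative maturation.

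Leaving out 1 array at a time, 3 to 5 members passed for Sirpa-positive maturation and 1 to 3 for the immature subset difference. Genes passing ranged from 394 (without Sirpa-positive mature replicate 6) to 1544, from 1777 (without Sirpa-negative mature replicate 2) to 3657, from 1232 (without Sirpa-positive immature replicate 3) to 2771 and from 636 (without Sirpa-positive mature replicate 6) to 1264 in the 4 comparisons, and from 0 to 1 for the difference of effects. Ranges that crossed 0 were -0.0020 to 0.91 for Actb in Sirpa-positive maturation, and -0.29 to 0.084 for Actg1 and -0.36 to 0.52 for Cttn in Sirpa-negative maturation. For Cacnb3 they were -1.28 to 0.26 among immature cells and -0.94 to 0.60 for the difference of effects, where Marcks spanned -0.14 to 0.37 and Cttn -0.081 to 0.80. Among mature cells they were -0.30 to 0.22 for Marcks, -0.54 to 0.37 for Actb, -0.49 to 0.15 for Actg1 and -0.54 to 0.34 for Cttn. A group left with 1 array was assumed to vary like the others. No paired analysis was possible because the groups share no replicate number; blocking on slide row, which holds 1 array of each group, was run instead, and of the 15 member calls it ended those of Marcks.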
